A study of Mus musculus with 4 samples.

Results

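The genes of glycolysis, of glucose and lactate transport and of the pentose phosphate steps were compared between wild-type (WT) and *Foxq1* conditional knockout (cKO) brain endothelial cells (ECs). They were taken by symbol from a list of 37 genes, and 32 of the 37 were among the 12693 genes of the deposited table. *Hk2*, *Eno2*, *Pfkfb2*, *Pfkfb4* and *Rpia* were not listed in it and were not analysed here. Every gene the table lists has at least 1 read in each of the 4 samples.

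Glycolysis splits glucose into pyruvate in the cytosol and yields ATP without oxygen. Cells that do not pass pyruvate to their mitochondria reduce it to lactate, which leaves through proton-coupled monocarboxylate transporters. The pentose phosphate steps branch off at glucose 6-phosphate, where an oxidative arm makes NADPH and a non-oxidative arm exchanges sugars of different length with glycolysis. ECs are known to draw much of their ATP from glycolysis, and those of the brain also carry glucose from the blood to the neural tissue through GLUT1 and monocarboxylates through MCT1.

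The data were RNA-seq of cells sorted for CD31, an EC surface protein, from the cerebral cortex of C57BL/6 mouse embryos at embryonic day 18, with 2 samples per genotype. WT samples carried the label WT, and littermates without the Cre transgene were the study's controls. The cKO samples were FOXQ1fl/fl;Tie2-Cre, in which Cre is driven by Tie2 regulatory sequence and removes the floxed *Foxq1* alleles in vascular ECs, and as background also in blood lineages. The question was which transcripts depend on the forkhead factor FOXQ1, studied for its link to energy metabolism in these cells. Whether the 2 samples of a genotype came from separate embryos or litters was not stated, so p-values measure the spread between these samples, which may be technical.

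Each value is a normalized count, the reads of a gene divided by a size factor of the sample, from 15827166 to 21466436 reads on listed genes per sample. *Foxq1* itself was at 353 and 297 normalized counts in WT 1 and WT 2, and at 5.44 and 32.6 in cKO 1 and cKO 2, so the cKO mean was 5.84% of the WT mean. All 9 EC markers searched for were present, with summed levels of 226200 to 268600 per sample. *Cldn5* alone was at 126706 to 151977 and made up most of each sum. Markers of mural cells were also high (130600 to 142000 in sum), with *Rgs5* at 89164 to 93044, while *Acta2* was not listed. Summed markers of microglia and macrophages were lower in both cKO samples (7118 and 7629) than in WT (9691 and 10830.0). So were those of radial glia and astrocytes (15860 and 15570.0 against 18780.0 and 19000.0) and the EC markers themselves (226200 and 244700 against 268600 and 247600). Single markers did not all go that way. The cKO minus WT log2 fold change was negative in 5 of 8 microglia and macrophage markers. It was negative in 4 of 7 radial glia and astrocyte markers and in 7 of 9 EC markers, against 49.3% of all genes tested. The part of these differences in the values given here was not tested. In bulk samples, fewer cells of a type and less RNA per cell cannot be told apart.

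The change of each gene was the cKO minus WT difference of log2(normalized count + 1), with its standard error (SE), from limma fitted to the 12472 genes with a mean of at least 10 normalized counts. All 32 genes passed that filter. No gene reached an adjusted p under 0.05 (Benjamini-Hochberg, 0% of genes tested, none of the 32), and the smallest adjusted p was 0.857, so the calls below rest on limma's unadjusted p being under 0.05. An exact permutation test of a single gene cannot go below 0.333 with 2 against 2 samples. By that rule 651 of the 12472 genes were called (5.22%), 380 lower in cKO (3.05%) and 271 higher (2.17%). On the reads recovered from these values, edgeR also called no gene at an adjusted p under 0.05, and DESeq2 called 59, of which 1, *Slc16a1*, is among the 32. With values scaled to the summed EC markers, the split of all genes called at an unadjusted p was 229 lower and 418 higher. It was also turned without WT 1 (316 lower, 510 higher) and without WT 2 (586 lower, 983 higher). Of the 32 genes, 5 were called (15.6%), with *Slc16a1*, *Ldha*, *Pkm* and *Adpgk* lower (12.5%) and *Pfkp* higher (3.12%). Without WT 1, 2 of the 32 genes were called lower and 2 higher.

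The direction was negative in 23 of the 32 genes (71.9%), against 49.3% of all genes tested. The median log2 fold change was -0.23, against 0.0086 over all genes tested. In 15 genes (46.9%) both cKO samples lay below both WT samples, an order seen in 18% of all genes tested, and in 5 genes (15.6%) they lay above, against 18%. The 32 genes are expressed above most others and had a smaller median SE (0.222) than all genes tested (0.496). Among the 6198 genes with a mean of at least 500, which hold 30 of them, 53.2% had a negative direction and 4.13% were called lower.

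WT 1 stood apart from the other samples for these genes. It was the highest of the 4 samples in 19 of the 32 genes, against 30.4% of all genes tested, and its median deviation from the mean of the 4 samples was 0.19 on the log2 scale, against 0.01 in WT 2, -0.15 in cKO 1 and -0.08 in cKO 2. Both cKO samples were below WT 1 in 22 genes (68.8%; 37.7% of all genes tested) and below WT 2 in 17 genes (53.1%; 34.5% of all genes tested). Without WT 1, the median log2 fold change of the 32 genes was -0.10.

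**Figure D1:**
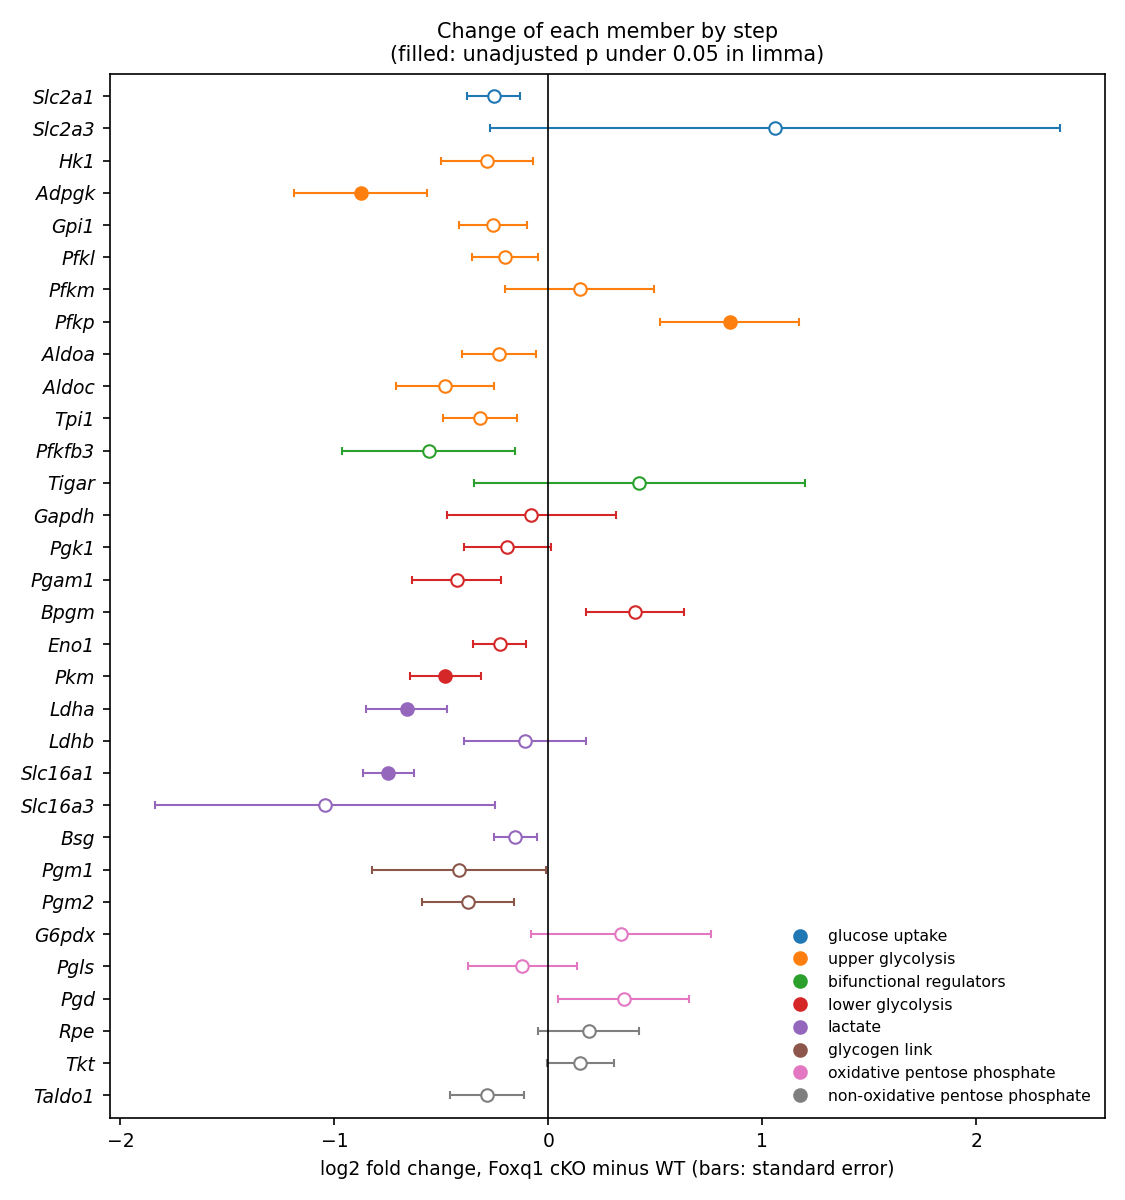
Log2 fold change (cKO minus WT) of the 32 genes on the x axis, ordered and coloured by step, with bars for the standard error and filled points for an unadjusted p under 0.05 in limma. The 5 lactate genes all lie left of 0, *Pfkp* is the only filled point to the right, and *Slc2a3*, *Slc16a3* and *Tigar* have the widest bars.

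Levels can be compared between genes only per length, and are given here as normalized counts per kb of annotated exon. On that scale the membrane proteins led in WT. *Bsg*, which encodes basigin, the chaperone that brings monocarboxylate transporters to the surface, was at 104027 per kb. *Slc2a1*, which encodes the glucose transporter GLUT1, followed at 27339.5, and *Slc16a1*, which encodes the lactate and pyruvate transporter MCT1, at 9819. The highest enzymes were *Pkm* at 6525 per kb, *Ldha* at 5205, *Taldo1* at 3464 and *Eno1* at 2239. Genes that share much sequence with others, such as *Eno1* and *Gapdh* (173 per kb), may not be counted in full. The order is therefore one of counted reads. *Slc2a3* at 17.9 and *Tigar* at 50 per kb were the lowest. *Adpgk* (158) and *Pfkp* (214) were also among the lower ones on this scale. Their place depends on the length used, which joins the exons of all transcripts of a gene (9609 bases for *Adpgk*, 13401 for *Pfkp*). Their longest coding transcripts have 2484 and 4145 bases.

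**Figure D2:**
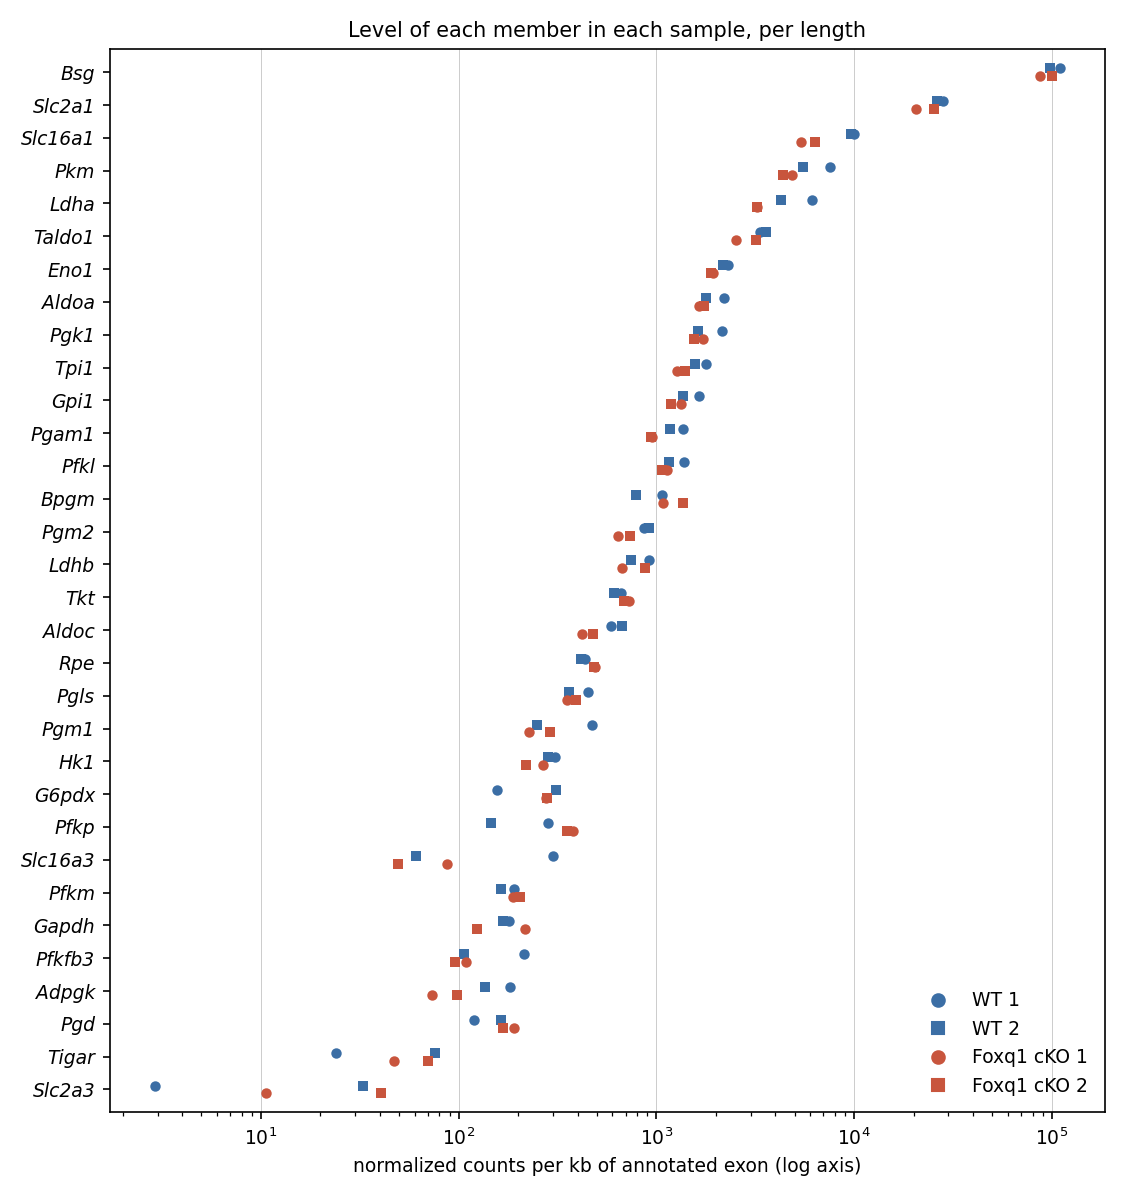
Normalized counts per kb of annotated exon (log x axis) of the 32 genes in each sample, ordered by the WT mean. Circles and squares are replicates 1 and 2, blue is WT and red is *Foxq1* cKO. *Bsg*, *Slc2a1* and *Slc16a1* lead in every sample, and the 2 WT samples of *Slc2a3*, *Slc16a3* and *Tigar* lie far apart.

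The promoters of the called genes are shown because many genes of this pathway are known to carry a hypoxia response core, ACGTG or GCGTG, which hypoxia-inducible factors read. The sequences are from the RefSeq table for GRCm38.p6, 5′ to 3′ on the strand of the gene, and lie within the 250 bases before the most upstream RefSeq start. Stretches annotated as exon were left out, which left too little of *Pkm* to show. Capitals mark the core on either strand. *Slc16a1* is shown at chr3:104638414-104638663 on the plus strand, *Ldha* at chr7:46845554-46845803 on the plus strand, *Adpgk* at chr9:59291322-59291557 on the plus strand and *Pfkp* at chr13:6648778-6649021 on the minus strand.
Slc16a1: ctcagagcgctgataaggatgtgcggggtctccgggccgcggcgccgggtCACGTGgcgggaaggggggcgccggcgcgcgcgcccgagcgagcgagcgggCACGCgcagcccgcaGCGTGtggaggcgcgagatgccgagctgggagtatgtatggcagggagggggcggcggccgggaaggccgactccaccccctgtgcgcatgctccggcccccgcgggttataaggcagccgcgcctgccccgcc
Ldha: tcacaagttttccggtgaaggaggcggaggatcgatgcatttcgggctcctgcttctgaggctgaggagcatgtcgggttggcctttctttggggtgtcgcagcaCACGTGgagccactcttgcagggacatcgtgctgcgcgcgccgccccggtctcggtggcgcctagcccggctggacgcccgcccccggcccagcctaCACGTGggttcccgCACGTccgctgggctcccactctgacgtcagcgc
Adpgk: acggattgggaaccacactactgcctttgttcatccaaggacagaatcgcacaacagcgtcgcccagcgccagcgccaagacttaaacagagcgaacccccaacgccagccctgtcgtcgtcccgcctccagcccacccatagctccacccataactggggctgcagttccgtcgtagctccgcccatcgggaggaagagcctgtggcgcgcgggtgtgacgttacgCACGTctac
Pfkp: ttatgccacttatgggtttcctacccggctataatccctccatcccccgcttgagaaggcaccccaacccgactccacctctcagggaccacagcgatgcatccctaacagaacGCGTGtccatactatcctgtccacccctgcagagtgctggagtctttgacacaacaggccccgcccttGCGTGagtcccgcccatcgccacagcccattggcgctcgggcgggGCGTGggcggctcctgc
*Slc16a1* holds 4 matches, *Ldha* 5, *Pfkp* 3 and *Adpgk* 1 in these windows. A CACGTG reads as ACGTG on both strands and counts as 2 matches. *Slc16a1* holds 1 CACGTG and *Ldha* holds 2, so both show fewer marked stretches than matches. Over the full 250 bases, exons included, *Adpgk* holds 2 and *Pkm*, the called gene not shown, holds none. Counted on both strands over 250 bases, ACGTG or GCGTG was in 22 of the 30 promoters given for the 32 genes (73.3%), in 38.6% of all 27025 promoters and in 57.2% of the 9295 promoters of tested genes. Counted separately, with promoters that hold both counted in each, ACGTG was in 11 of the 30 (36.7%; 22.1% of tested genes) and GCGTG in 15 (50%; 45.8%). The E-box CACGTG, which contains ACGTG, was in those of *Slc16a1*, *Ldha* and *Pfkm* (10%; 8.51% of tested genes), and the forkhead core TGTTTA was in 1, that of *Adpgk* (3.33%; 7.24%). A match is a run of letters and does not show that a factor binds there.

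For glucose uptake, *Slc2a1* was at 99099 and 92605 normalized counts in WT 1 and WT 2, and at 71956 and 89496 in cKO 1 and cKO 2. Both cKO samples were below both WT samples, but cKO 2 lay closer to WT 2 than to cKO 1. The log2 fold change was -0.26 (SE 0.122), which was not called, and without cKO 2 it was -0.41 and called. *Slc2a3*, which encodes the neuronal type glucose transporter GLUT3, was at 21.1, 238, 77.3 and 292 in the same order. Its WT samples differed 11.3-fold, so its log2 fold change of 1.06 (SE 1.33) carried no direction. It was -0.66 without WT 1, and 2.78 and called without WT 2.

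In upper glycolysis, which takes glucose to the triose phosphates, 9 of 10 listed genes were measured. Of these, 7 had a negative log2 fold change, against 49.3% of all genes tested, and the median was -0.26. Glucose is phosphorylated by hexokinase 1, encoded by *Hk1*, which was at 2621 and 2417 in WT and 2282 and 1871 in cKO (-0.28, SE 0.215). *Adpgk* encodes a glucokinase that uses ADP in place of ATP. It was at 1743 and 1299 normalized counts in WT and at 709 and 947 in cKO, so both cKO samples were below the lower WT sample and the cKO mean was 54.4% of the WT mean. Its log2 fold change of -0.88 (SE 0.312) was the most negative among the called genes. The call was lost without WT 1 (-0.66) and without cKO 1 (-0.67), and with all 4 samples in limma without a mean trend and without moderation across genes.

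*Gpi1*, the isomerase of glucose 6-phosphate, was at 10630.5 and 8818 in WT and 8584 and 7629 in cKO (-0.26, SE 0.157). The 3 phosphofructokinase subunits, which set the committed step, went different ways. *Pfkl*, the liver type subunit and the most abundant of the 3, was at 9267 and 7703 in WT and 7523 and 7159.6 in cKO (-0.20, SE 0.154). *Pfkm*, the muscle type subunit, was at 637 and 547 in WT and 629 and 679.5 in cKO, with groups that overlapped. *Pfkp*, the platelet type subunit, was at 3790.1 and 1945 in WT and 5055 and 4721 in cKO. Both cKO samples were above both WT samples and close to each other, whereas the WT samples differed 1.95-fold. The log2 fold change of *Pfkp* was 0.85 (SE 0.323), and the cKO mean was 1.70-fold the WT mean. It was 1.33 without WT 1 and still called. The call was lost without WT 2 (0.37), without cKO 1 (0.80) and without cKO 2 (0.90), and in edgeR on the reads (0.77), in limma without a mean trend and in a test without moderation.

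Because ratios within a sample do not depend on the size factor, isoforms were also compared as ratios of normalized counts. Each of 7 pairs had an exact two-sided permutation test over samples, which cannot go below 0.333 with 2 against 2 samples. Groups that do not overlap always reach that floor. *Pfkl* was 2.44 and 3.96 times *Pfkp* in WT, and 1.49 and 1.52 times *Pfkp* in cKO. The difference was -1.05 on the log2 scale with groups that did not overlap (exact p = 0.333, adjusted p = 0.778 over the 7 pairs). For *Pfkm* over *Pfkp* it was -0.70 (exact p = 0.333, adjusted p = 0.778), and here too the groups did not overlap.

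The aldolases and the triose phosphate isomerase complete the upper part of the pathway. *Aldoa* was at 6412 and 5194 in WT and 4797 and 5053 in cKO (-0.23, SE 0.173). *Aldoc*, the aldolase best known from brain, was at 1934 and 2179 in WT and 1378 and 1569 in cKO (-0.48, SE 0.229). *Tpi1* was at 4902 and 4299.8 in WT and 3498 and 3865 in cKO (-0.32, SE 0.174). In all 3 both cKO samples were below both WT samples, an order seen in 18% of all genes tested, and none was called. The *Aldoa* to *Aldoc* ratio overlapped between groups (0.25 on the log2 scale, exact p = 0.667, adjusted p = 0.778).

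Fructose 2,6-bisphosphate switches phosphofructokinase on, and its level is set by bifunctional enzymes and by TIGAR. *Pfkfb3*, whose enzyme makes it, was at 1611 and 805 in WT and 826 and 722 in cKO. WT 2 lay among the cKO samples, so the log2 fold change of -0.56 (SE 0.405) rested on WT 1. It was -0.06 without WT 1, and -1.06 and called without WT 2. *Tigar*, whose enzyme removes it, was at 87.6, 278, 173 and 255 in WT 1, WT 2, cKO 1 and cKO 2. Its WT samples lay on either side of the cKO samples (0.43, SE 0.774, and -0.40 without WT 1). The ratio of *Pfkfb3* to *Tigar* overlapped between groups (-0.98, exact p = 0.667, adjusted p = 0.778).

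In lower glycolysis, from glyceraldehyde 3-phosphate to pyruvate, 6 of 7 listed genes were measured. Of these, 5 had a negative log2 fold change, against 49.3% of all genes tested, and the median was -0.21. *Gapdh*, a common reference gene and the internal control of the study's quantitative PCR, was at 739 and 692 in WT and 894 and 513 in cKO. The 2 cKO samples lay on either side of WT (-0.08, SE 0.397; 0.32 without cKO 2). Of its 50-base words, 82.5% also occur in transcripts of 222 other genes, the highest share among the 32 genes, so its reads may not be counted in full. Shares above 20% were found in 7 genes, the others being *Eno1* (72.2%), *Pgk1* (68.0%), *Pgam1* (41.5%), *Pkm* (34.4%), *Ldhb* (27.0%) and *Gpi1* (25.3%). Their values are uncertain for that reason. *Pfkp* (17.1%) and *Ldha* (16.6%) were below that limit, and *Slc16a1* and *Adpgk* shared none.

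*Pgk1* encodes the first ATP-forming enzyme of the pathway and was at 4809 and 3659 in WT and 3870.2 and 3487 in cKO, with groups that overlapped. Without WT 1 its log2 fold change of -0.19 (SE 0.202) became 0.0059. *Pgam1*, the phosphoglycerate mutase, was at 2708 and 2336 in WT and 1880.1 and 1859 in cKO (-0.43, SE 0.209). *Eno1*, the enolase, was at 12392 and 11692 in WT and 10446 and 10129 in cKO (-0.23, SE 0.123). Both had the cKO samples below both WT samples, an order seen in 18% of all genes tested. Neither was called, except *Eno1* in the test without moderation. *Bpgm*, which diverts the pathway to 2,3-bisphosphoglycerate, was the exception in direction, at 3826 and 2835 in WT and 3864 and 4918 in cKO. WT 1 and cKO 1 were nearly equal for *Bpgm* (0.40, SE 0.229), and it was called only without WT 1 (0.62) or with values scaled to the EC markers (0.54). Erythroid cells are rich in this enzyme, and their summed markers overlapped between the groups (20860.0 and 15770.0 in WT, 16020.0 and 20520.0 in cKO). Within each genotype the sample with the higher sum also had the higher *Bpgm* value. Any erythroid part in the *Bpgm* values was not tested.

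*Pkm* encodes pyruvate kinase, which makes pyruvate and the second ATP. It was at 37605 and 27658 normalized counts in WT and at 24329 and 21931 in cKO. WT 1 was well above the other samples, and cKO 1 lay closer to WT 2 than WT 2 lay to WT 1. The log2 fold change was -0.48 (SE 0.166), and the cKO mean was 70.9% of the WT mean. This call was lost without WT 1 (-0.26), without cKO 1 (-0.56) and without cKO 2 (-0.41), and with quantile normalization (-0.39), scaling to the EC markers (-0.35), limma without a mean trend and no moderation.

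The lactate genes gave the lowest median of the steps, -0.66, which is the value of *Ldha*. All 5 had a negative log2 fold change, against 49.3% of all genes tested, and in 3 of them the groups overlapped. *Ldha* encodes the subunit of lactate dehydrogenase that favours lactate formation. It was at 20325 and 14131 normalized counts in WT and at 10661 and 10755 in cKO. The cKO samples were nearly equal and both below WT 2, the lower WT sample, and the cKO mean was 62.2% of the WT mean. The log2 fold change was -0.66 (SE 0.189). It was -0.40 without WT 1 and -0.92 without WT 2, both still called, and the call was lost without cKO 1 (-0.66) and without cKO 2 (-0.67). With all 4 samples it was lost in limma without a mean trend and without moderation.

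*Ldhb* encodes the subunit that favours pyruvate formation. It was at 1442 and 1170.4 in WT and 1053 and 1381 in cKO, with groups that overlapped (-0.11, SE 0.285; 0.04 without WT 1 and 0.09 without cKO 1). The ratio of *Ldha* to *Ldhb* was 14.1 and 12.1 in WT and 10.1 and 7.79 in cKO. Both cKO ratios were below both WT ratios, a difference of -0.56 on the log2 scale (exact p = 0.333, adjusted p = 0.778 over the 7 pairs). *Ldhb* shares 27.0% of its 50-base words with another gene, so the ratio is uncertain for that reason.

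*Slc16a1* had the smallest p of the 32 genes in limma, at rank 5 among all 12472 genes tested. It was at 44369 and 42549 normalized counts in WT and at 23742 and 28218 in cKO. The WT samples differed by 1.04-fold and the cKO samples by 1.19-fold, and the gap between the groups was larger than the spread within either. The cKO mean was 59.8% of the WT mean, and the log2 fold change was -0.75 (SE 0.119, limma adjusted p = 0.857). With 1 sample left out it was between -0.87 and -0.62 and called each time. It was called in 12 of the 13 other fits of the 4 samples, the exception being limma without a mean trend, which called none of the 32 genes. On the reads DESeq2 gave it an adjusted p = 0.0027. Set against the summed EC markers, *Slc16a1* was at 16.5% and 17.2% in WT and at 10.5% and 11.5% in cKO. The groups stayed apart on that scale too, but most of that sum is *Cldn5*.

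**Figure D3:**
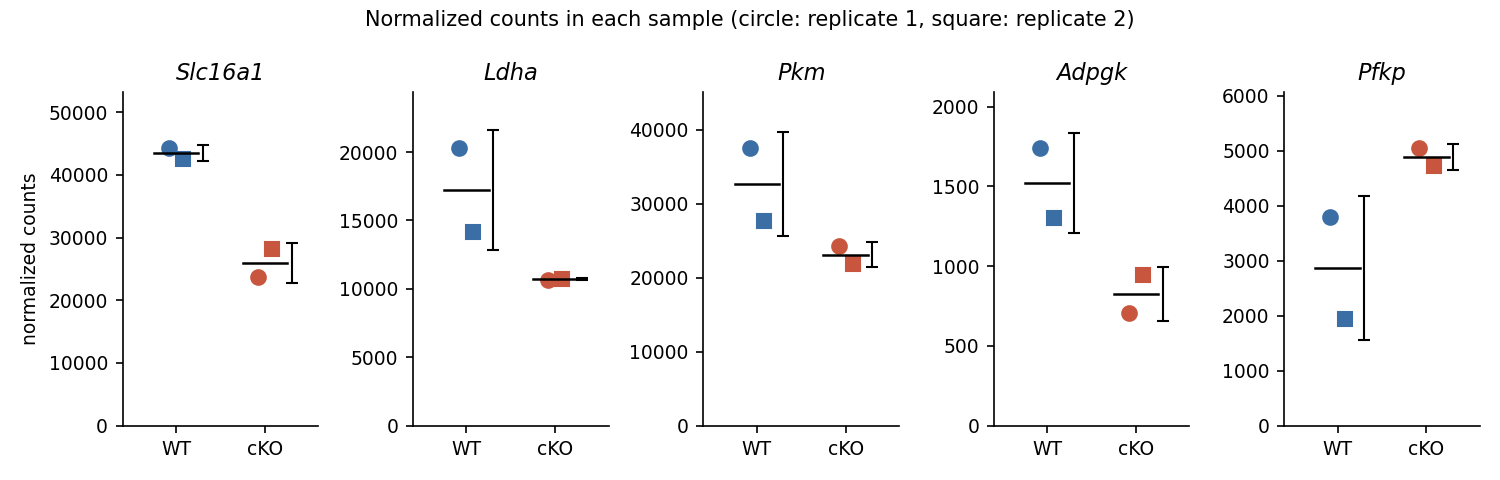
Normalized counts of the 5 genes with an unadjusted p under 0.05 in each sample (y axis from 0), with circles for replicate 1, squares for replicate 2, a line at the mean and bars for 1 SD (n = 2). *Slc16a1*, *Ldha*, *Pkm* and *Adpgk* are lower in both cKO samples and *Pfkp* is higher, and the WT samples of *Ldha*, *Pkm*, *Adpgk* and *Pfkp* are farther apart than those of *Slc16a1*.

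*Slc16a3*, which encodes the low affinity exporter MCT4, was at 1598 and 324 in WT and 463 and 262 in cKO. WT 1 was far above the other samples and WT 2 lay among the cKO samples (-1.04, SE 0.795). Without WT 1 the log2 fold change was 0.10, and without WT 2 it was -2.19 and called. It was also called in DESeq2 on the reads (-1.41). The ratio of *Slc16a1* to *Slc16a3* was 27.8 and 131 in WT and 51.3 and 108 in cKO (exact p = 1). *Bsg* was at 198665 and 178745 in WT and 157582 and 181699 in cKO, with groups that overlapped (-0.16, SE 0.101). Against the summed EC markers *Bsg* was at 74.0% and 72.2% in WT and 69.7% and 74.3% in cKO.

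On the same scale, relative to the summed EC markers, *Ldha* was at 7.57% and 5.71% in WT and 4.71% and 4.39% in cKO, and *Adpgk* was at 0.649% and 0.525% in WT and 0.313% and 0.387% in cKO. *Pfkp* was at 1.41% and 0.786% in WT and 2.24% and 1.93% in cKO. For these 3 genes and for *Pkm* (14.0% and 11.2% in WT, 10.8% and 8.96% in cKO) the groups did not overlap. *Hk1*, *Gpi1*, *Pfkl*, *Aldoa*, *Eno1* and *Taldo1*, whose cKO samples were below both WT samples before scaling, overlapped on this scale. *Pfkm*, which had overlapped, had both cKO samples above both WT samples on it. The share of all genes tested without overlap is not given for this scale. With values scaled to these markers, the median log2 fold change of all genes tested moved to 0.14 and that of the 32 genes to -0.10. *Pkm* was then no longer called (-0.35), *Bpgm* was called higher (0.54), and the other 4 called genes stayed past an unadjusted p of 0.05.

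The genes named for phosphoglucomutase were placed by name at the link of glucose 6-phosphate to glycogen. Whether both act there was not tested. The gene given as *Pgm2* was at 2248 and 2385 in WT and 1666 and 1912 in cKO (-0.38, SE 0.214), without overlap. The gene given as *Pgm1* was at 1378 and 728 in WT and 662 and 850.4 in cKO, with overlap (-0.42, SE 0.406; 0.04 without WT 1). These symbols have been exchanged between mouse annotations. By its identifier, the gene given as *Pgm1* lies on chromosome 4 and that given as *Pgm2* on chromosome 5, and both have the same names in GENCODE vM21.

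The oxidative pentose phosphate genes, which provide NADPH, had a median of 0.34. *G6pdx*, the entry enzyme, was at 481 and 960.1 in WT and 857 and 863 in cKO. The nearly equal cKO samples lay between WT samples that differed 2.00-fold (0.34, SE 0.420; -0.16 without WT 1). *Pgls*, the lactonase, was at 1704 and 1364 in WT and 1327 and 1479 in cKO (-0.12, SE 0.254; 0.04 without WT 1), and shares 20.6% of its exon bases with a neighbouring gene. *Pgd*, the enzyme that releases carbon dioxide and forms the second NADPH, was at 767 and 1059 in WT and 1224 and 1083 in cKO. The cKO samples of *Pgd* were above both WT samples, but cKO 2 only narrowly so (0.35, SE 0.306).

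The non-oxidative genes had a median of 0.15. *Rpe*, the epimerase of ribulose 5-phosphate, was at 1354 and 1302 in WT and 1522 and 1507 in cKO (0.19, SE 0.236). *Tkt*, the transketolase, was at 4878 and 4514 in WT and 5341 and 5071 in cKO (0.15, SE 0.156). *Taldo1*, the transaldolase and the most abundant of the pentose phosphate genes per kb, went the other way, at 7273 and 7769 in WT and 5465 and 6962 in cKO (-0.29, SE 0.172). The groups did not overlap in any of the 3, which was seen in 18% of all genes tested in each direction. None of the 6 pentose phosphate genes was called, except *Rpe* in the test without moderation. Whether the pentose phosphate genes differ from the glycolytic ones in their response was not tested.

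**Figure D4:**
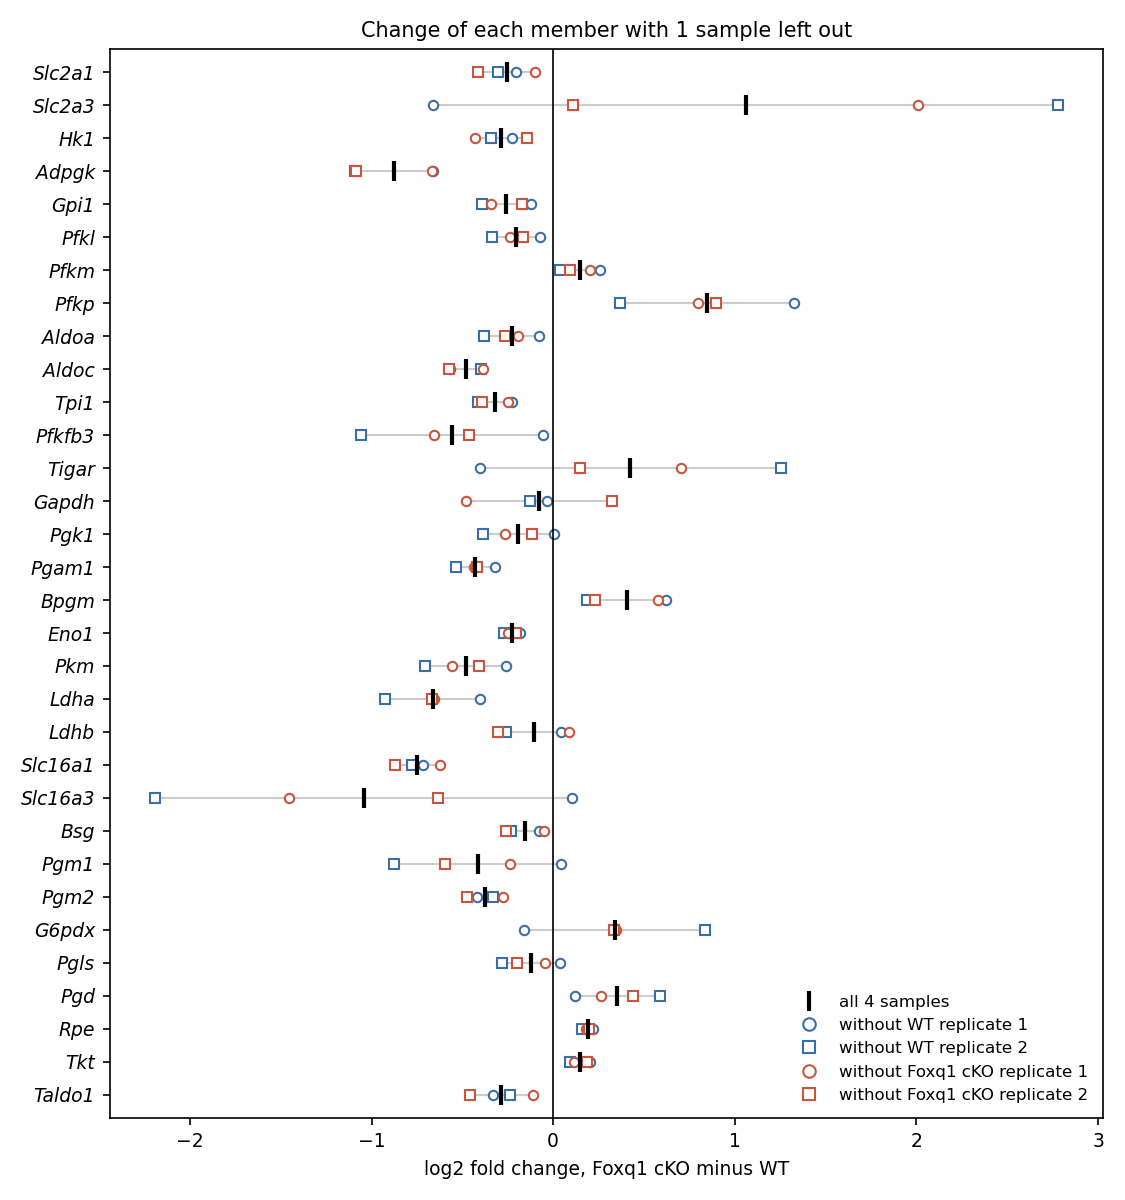
Log2 fold change (cKO minus WT, x axis) of the 32 genes with all 4 samples (black bar) and with 1 sample left out (open symbols, blue for a WT and red for a cKO sample left out). *Slc16a1*, *Adpgk*, *Ldha* and *Pkm* stay left of 0 and *Pfkp* right of 0 in every fit, while 9 genes change sign in at least 1 fit.

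A further 61 genes of glucose, glycogen, fructose, galactose and hexosamine metabolism and of sugar and monocarboxylate transport were looked up for context, and 39 were in the table. Of these 39, none was called lower and 1 was called higher, against 3.05% and 2.17% of all genes tested. In 27 the log2 fold change was negative, against 49.3% of all genes tested, and the median was -0.29. Both cKO samples were below both WT samples in 10 and above in 4, against 18% of all genes tested each way. The gene called higher was *Slc2a9*, which encodes the urate transporter GLUT9, at 9.27 and 16.9 normalized counts in WT and 196 and 193 in cKO. These are 11 and 17 reads in WT, and 180 and 190 reads in cKO. The groups were far apart at a low level (3.85, SE 0.869, limma adjusted p = 0.857).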

How the data were processed

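RNA-seq of CD31-sorted cortical ECs was analysed for 2 WT and 2 *Foxq1* cKO samples. Tools listed in the submitters' processing notes, with no role or order, were Bowtie2 2.2.3, TopHat2 2.0.12 and HTSeq 0.6.0, with the build mm9. The authors deposited 1 table with a normalized signal per gene, repeated over 1207361 lines. These were reduced to 12693 gene names, of which 8 had 2 identifiers with identical values. The signal was the read count divided by a size factor per sample (1.19 and 1.00 in WT, 0.919 and 0.983 in cKO), and 100% of values were whole multiples of 1 read within 0.01. Every listed gene had at least 1 read in each sample, so losses of expression to 0 could not be measured.

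Values were fitted on the scale log2(signal + 1) with limma 3.58.1 under R 4.3.3, using lmFit, then eBayes along the mean trend and no replicate term. Genes needed a mean of 10 or more. The p-values had Benjamini-Hochberg adjustment over all genes tested. The fit was tested on simulated data first. DESeq2 1.42.0 and edgeR 4.0.16 (quasi-likelihood, TMM) on the recovered reads were alternatives. The list of 37 genes, the other lists and the tests were chosen with earlier results of these data known. By rule, all 32 genes in the table were named by step, with values in every sample where p was under 0.05 or the groups did not overlap, and other pathway genes were named where p was under 0.05.

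Exon lengths were from GENCODE vM21 (GRCm38), which matched 12685 of 12701 identifiers. Promoters were matched by symbol in RefSeq, for 30 of the 32 genes, with *Bsg* and *Slc2a3* missing. Words of 50 bases were compared with all other transcripts. Whether counting used strand is not given in the sources used here, and 16 of the 32 genes share exon bases with another gene. Figures were drawn with matplotlib 3.10.9 under Python 3.11.15.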

Additional observations from a re-analysis of the deposited data

How the results depend on the processing

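The count of 5 called genes was 4 to 6 in the other fits of the 4 samples, except that limma without a trend called 0 and a test without moderation 3, of which *Slc16a1* was among the 5 and *Eno1* (lower) and *Rpe* (higher) were not. With 1 sample left out, where the lone sample is assumed to vary like the others, it was 1 to 7 (4 without WT 1, 7 without WT 2, 1 without cKO 1, 3 without cKO 2), and over all genes it was 276 (without cKO 1) to 1569 (without WT 2). A minimum mean of 500, chosen after seeing the data, called 391 genes among fewer tested. At an adjusted p under 0.05, DESeq2 called 59 genes and 1 of the 32, with 0 in limma and edgeR. The median of the 32 genes was -0.12 with quantile normalization, -0.10 with scaling to EC markers, also chosen after seeing the data, which moved that of all genes to 0.14, and -0.32 to -0.10 with 1 sample left out. Over the 32 genes and the fits that kept all 4 samples, the direction and the side of the threshold held in 395 results, 12 lost and 4 gained a call, and 3 turned, all under EC marker scaling (*Gapdh* 0.0535, *Ldhb* 0.0252, *Pgls* 0.0108). With 1 sample left out, 9 genes changed sign in at least 1 fit, with ranges of -0.66 to 2.78 for *Slc2a3*, -0.40 to 1.25 for *Tigar*, -0.48 to 0.32 for *Gapdh*, -0.39 to 0.0059 for *Pgk1*, -0.30 to 0.0887 for *Ldhb*, -2.19 to 0.10 for *Slc16a3*, -0.88 to 0.0439 for *Pgm1*, -0.16 to 0.84 for *G6pdx* and -0.28 to 0.0388 for *Pgls*. The ratios of *Slc2a1* to *Slc2a3* (-3.08 to 0.45), *Slc16a1* to *Slc16a3* (-0.82 to 1.42) and *Pfkfb3* to *Tigar* (-2.31 to 0.34) also changed sign. The cause of these changes was not tested.

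The replicate numbers are shared between the genotypes, but samples of one number did not deviate together (r = 0.03 over 12472 genes). With the number as a replicate block, 5 of the 32 genes and 693 of all genes were called. The 2 samples per genotype, the lack of genes listed at 0 reads and the shared sequence of several glycolytic genes limit what these data can show.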
